A study of Mus musculus with 6 samples.

Results

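Gene deserts are long stretches of the genome without protein-coding genes. The accessible regions inside them were examined in mouse embryonic stem cells as the cells left mitosis. A region was placed in a desert when its centre lay more than 300 kb from the nearest annotated protein-coding gene, measured to the gene's start or end (mm10, chromosomes 1 to 19). Of the 64018 regions obtained by merging the peaks of 6 ATAC-seq lists, 1693 (2.64%) met this rule. Another 27699 regions lay outside genes but nearer to them and are called other intergenic regions, and 34626 were centred within a gene.

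ATAC-seq marks accessible DNA through adapter insertion by the Tn5 transposase. All 6 samples were untreated CGR8 embryonic stem cells, grown in serum-free N2B27 medium with CHIR99021 (a GSK3 inhibitor), PD184352 (a MEK inhibitor) and leukemia inhibitory factor, and the series design gives the line as Cdt1-MD. The series concerns how the genome becomes active again at mitotic exit, and its samples are labelled mito, LM and eG1-1, each in 2 replicates. They were taken as mitosis, then late mitosis, then early G1, although the labels do not spell them out and peaks of both LM lists carry the name Telo. The sample titles carry the tag 10K while the protocol gives 50000 cells. Whether the replicates were grown as separate cultures is not in the labels, so any p-value measures only the spread between these lists, which may be technical. Every replicate 1 list came from 1 sequencing run and every replicate 2 list from another, per the peak names.

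Peaks numbered 24598 and 30446 per list in mito, 23867 and 20639 per list in LM, and 32101 and 48396 per list in eG1-1. The lists give no read counts, so their depth is unknown, and where a peak is missing the data say only that the caller made no call. The score of a peak is the authors' own whole-number value, never under 13, and its scale is not given in the sources used here. Scores were therefore compared within a list, often as a percentile of that list, and are shown side by side across lists only as a description. Of 33 pluripotency genes on these chromosomes, 10 (30.3%) had a peak within the gene in all 6 lists, against 33.7% of all protein-coding genes, so peaks within these genes do not check the labelled cell type. In bulk samples, fewer cells with an open region and a less open region in each cell cannot be told apart.

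Deserts are known to flank genes of development and of neural cell adhesion. Some hold enhancers that act on a gene over long distances, while other deserts can be deleted in mice with little visible effect. During mitosis chromosomes condense and many transcription factors leave DNA, yet part of the accessible sites stays open, and distal sites are known to be more prone to close than promoters. Deserts also hold long noncoding RNA genes, microRNA genes, the variable segments of antigen receptor loci and satellite repeats.

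Because no protein-coding promoter lies in a desert by definition, the only annotated starts there belong to other gene types. A window of 300 bases around the start of 22 noncoding RNA genes overlapped a desert region, and all 22 were long noncoding RNA genes. The windows of 4 of these genes overlapped a region with a peak in all 6 lists, and that of Gm32810 a region absent from 1 mito list and both LM lists. These 5 windows are shown because their regions were called in all 6 lists or, for Gm32810, mainly in eG1-1, and because they range from CpG-free to CpG-bearing starts. They run 5′ to 3′ on the gene's strand, with CG dinucleotides in capitals (RefSeq, GRCm38.p6).
Gm32810: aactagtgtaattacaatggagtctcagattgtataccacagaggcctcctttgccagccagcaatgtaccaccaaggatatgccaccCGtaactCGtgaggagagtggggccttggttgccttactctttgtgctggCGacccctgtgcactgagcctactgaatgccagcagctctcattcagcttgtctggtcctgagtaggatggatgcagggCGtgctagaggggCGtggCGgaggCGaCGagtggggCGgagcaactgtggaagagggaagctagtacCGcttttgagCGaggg
C330004P14Rik: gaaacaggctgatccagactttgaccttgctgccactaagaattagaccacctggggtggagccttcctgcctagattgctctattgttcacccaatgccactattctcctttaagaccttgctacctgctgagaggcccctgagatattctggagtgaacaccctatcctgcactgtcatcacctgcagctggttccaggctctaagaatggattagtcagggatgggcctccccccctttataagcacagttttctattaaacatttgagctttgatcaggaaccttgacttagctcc
Gm52029: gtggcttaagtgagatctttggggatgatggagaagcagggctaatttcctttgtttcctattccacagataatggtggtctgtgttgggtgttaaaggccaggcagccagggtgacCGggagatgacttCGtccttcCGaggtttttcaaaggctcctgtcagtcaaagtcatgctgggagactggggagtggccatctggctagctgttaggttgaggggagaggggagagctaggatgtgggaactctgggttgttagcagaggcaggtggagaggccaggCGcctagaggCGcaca
Gm35888: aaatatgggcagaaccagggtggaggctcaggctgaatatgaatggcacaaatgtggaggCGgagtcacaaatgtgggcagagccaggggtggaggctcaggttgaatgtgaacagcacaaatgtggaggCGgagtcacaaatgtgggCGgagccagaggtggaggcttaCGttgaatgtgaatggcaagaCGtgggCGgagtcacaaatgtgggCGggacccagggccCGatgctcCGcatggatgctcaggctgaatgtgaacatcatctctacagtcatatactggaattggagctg
1190028D05Rik: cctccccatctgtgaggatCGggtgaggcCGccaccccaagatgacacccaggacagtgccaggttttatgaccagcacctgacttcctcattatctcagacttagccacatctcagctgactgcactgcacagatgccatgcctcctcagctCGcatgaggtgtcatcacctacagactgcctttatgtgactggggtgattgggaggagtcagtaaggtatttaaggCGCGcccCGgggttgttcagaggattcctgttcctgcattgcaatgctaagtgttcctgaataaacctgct

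The windows lie at chr1:112416869-112417168 on the minus strand for Gm32810, chr10:15791527-15791826 on the plus strand for C330004P14Rik, chr13:47855909-47856208 on the minus strand for Gm52029, chr2:178850373-178850672 on the plus strand for Gm35888 and chr8:52356361-52356660 on the plus strand for 1190028D05Rik. Gm32810 had 11 CG dinucleotides, Gm35888 had 9, 1190028D05Rik had 6, Gm52029 had 5 and C330004P14Rik had none. The median over all 31396 such windows on chromosomes 1 to 19 was 7, and over the 22 desert windows it was 4. CG dinucleotides are frequent at the starts of housekeeping genes, and the median desert window held fewer than the median of all windows. The letters TATAAA, searched on both strands, occurred in 3 of the 22 windows and in 13.6% of all windows. GGGCGG, the core of an Sp1 site, occurred in 3 of the 22 and in 36% of all. CCAAT occurred in 8 of the 22 and in 37.3% of all, and ATGCAAAT, the octamer read by POU factors such as OCT4, in 1 of the 22 and in 1.75% of all. Of the 5 windows shown, Gm32810 and Gm35888 held GGGCGG, C330004P14Rik held TATAAA, and C330004P14Rik, Gm35888 and 1190028D05Rik held CCAAT. The Gm35888 window repeats the letters TCACAAATGTGG 3 times. These matches describe the sequence and say nothing of whether a factor was bound.

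At C330004P14Rik, which lies between Nmbr and Cited2 with the region's centre 1020.3 kb from the nearer of them, the region scored 67 and 111 in mito cells, 35 and 40 in LM cells and 33 and 135 in eG1-1 cells. At Gm52029, between Rnf144b and Id4 (an inhibitor of basic helix-loop-helix factors), it scored 129 and 113 in mito cells, 80 and 23 in LM cells and 55 and 80 in eG1-1 cells. At Gm35888, between Cdh26 and 4930591A17Rik, it scored 60 and 39 in mito cells, 46 and 31 in LM cells and 103 and 83 in eG1-1 cells. The eG1-1 scores at Gm35888 lay above those of the other 4 lists, and the mito scores at Gm52029 did, while the groups overlapped at C330004P14Rik. At 1190028D05Rik, between Tenm3 and Aga, the region scored 35 and 66 in mito cells, 39 and 60 in LM cells and 56 and 122 in eG1-1 cells, with overlapping groups. At Gm32810, between Dsel and Cntnap5a, it had no peak in mito replicate 1 and a score of 30 in mito replicate 2, no peak in LM and scores of 86 and 131 in eG1-1.

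The largest part of the desert regions was called in early G1. Of the 1693 regions, 473 and 619 had a peak in the mito lists, 458 and 479 in the LM lists and 833 and 1114 in the eG1-1 lists. These numbers are 27.9% and 36.6% of the desert regions in mito cells, 27.1% and 28.3% in LM cells and 49.2% and 65.8% in eG1-1 cells. Both eG1-1 lists therefore held more of them than each of the other 4, and eG1-1 replicate 2, the longest list, held the most. At equal list length, where 970 desert regions remained, 390 and 391 were held in mito cells, 374 and 479 in LM cells and 476 and 485 in eG1-1 cells, and LM replicate 2 was then level with eG1-1. Other intergenic regions were held at 38.5% and 47.1% in mito cells, 36.1% and 32.2% in LM cells and 49.2% and 73.0% in eG1-1 cells. In each list the desert regions were held at a lower or like rate, and the gap was narrowest in eG1-1 replicate 1, where desert minus other intergenic presence was −0.0411 percentage points. It was −10.5 and −10.6 points in mito, −9.07 and −3.86 in LM and −7.18 in eG1-1 replicate 2. At equal list length the gap was narrowest in LM replicate 2, at −0.398 points, followed by −1.31 and −0.996 in eG1-1. In the lists as deposited, regions 200 to 300 kb from a gene were held at 25.8% and 34.6% in mito and 27.3% and 27.2% in LM. In eG1-1 they were held at 48.4% and 66.7%, so these shares lay near those of the deserts.

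The desert share of peaks outside genes followed the order of the stages. Desert peaks made up 4.19% and 4.42% of intergenic peaks in mito cells, 4.47% and 4.83% in LM cells and 5.48% and 5.05% in eG1-1 cells. The 3 groups did not overlap, and the order mito, LM, eG1-1 held within each sequencing run. The share averaged 4.30% ± 0.165 in mito cells, 4.65% ± 0.255 in LM cells and 5.27% ± 0.306 in eG1-1 cells (SD, n = 2 each), and eG1-1 minus mito was 1.30 points in run 1 and 0.631 in run 2. The slope of 0.482 points per stage had an exact two-sided permutation p of 0.0222, the smallest that the 90 assignments of 6 lists to 3 groups allow, and missed the threshold of 0.05 after Benjamini-Hochberg adjustment over 8 trends (adjusted p 0.178). With stages coded at equal steps the slope rests on mito and eG1-1 only. On the strongest peaks of each list at equal length the shares were 4.06% and 3.98% in mito cells, 4.19% and 4.83% in LM cells and 4.74% and 4.83% in eG1-1 cells. There the LM and eG1-1 values overlapped while mito stayed lowest, and the exact permutation p was 0.0667. A limit of 200 kb, which takes in the deserts and nearer regions, gave the same order without overlap. The shares were then 6.34% and 6.70% (mito), 6.94% and 7.36% (LM), and 8.44% and 7.88% (eG1-1). The exact permutation p was again 0.0222 (adjusted p 0.178). Whether the order is particular to deserts was not tested.

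**Figure D1:**
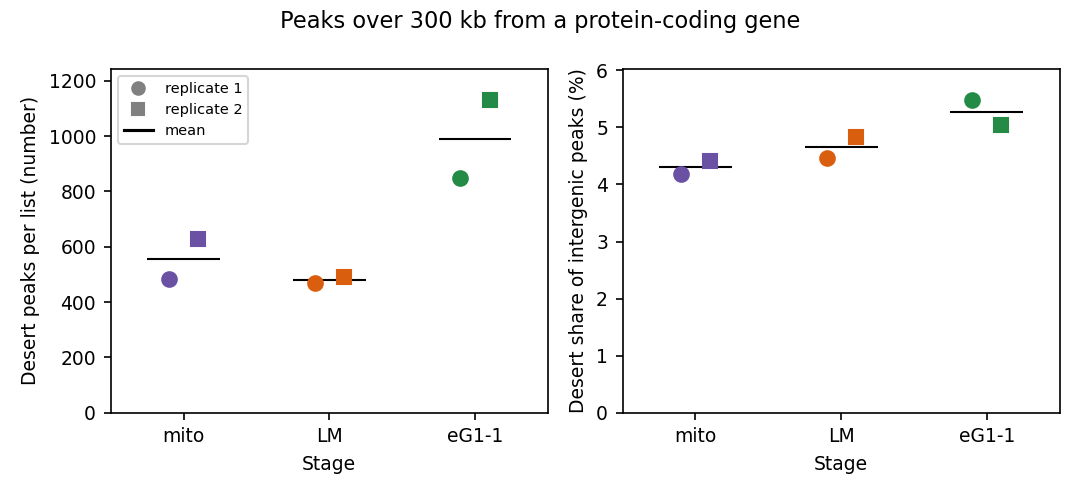
Number of desert peaks per list (left) and their share of all intergenic peaks in percent (right) at mito, LM and eG1-1; circles are replicate 1, squares replicate 2 and lines the mean of 2. The share runs from 4.19% in mito replicate 1 to 5.48% in eG1-1 replicate 1 without overlap between groups, while the number is lowest in LM, at 468 and 491, and mito replicate 1 lies between these at 483.

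The number of desert peaks was 483 and 627 in mito cells, 468 and 491 in LM cells and 847 and 1130 in eG1-1 cells. Its slope of 217 peaks per stage had an exact permutation p of 0.111 (adjusted p 0.213), and at equal list length the slope was 46.2 peaks (exact permutation p 0.200). Their share of all peaks of a list was 2.00% and 2.11% in mito cells, 2.00% and 2.42% in LM cells and 2.69% and 2.38% in eG1-1 cells, with a slope of 0.242 points and an exact permutation p of 0.133 (adjusted p 0.213). LM and eG1-1 overlapped in this share. Desert minus other intergenic presence had a slope of 3.47 points (exact permutation p 0.0889, adjusted p 0.213). Among the 1000 strongest peaks of each list, 9 and 9 were desert peaks in mito cells, 8 and 10 in LM cells and 12 and 12 in eG1-1 cells. That share, 1.20% in both eG1-1 lists, had a slope of 0.150 points with an exact permutation p of 0.0889 (adjusted p 0.213). None of the 8 trends passed after adjustment. With a smallest possible exact permutation p of 0.0222, 1 trend cannot pass over 8 unless several others also have low p-values. The adjusted values therefore say little about any single trend.

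Desert peaks scored lower than other intergenic peaks of the same list. The median desert peak lay at percentile 41.2 and 41.1 of its list in mito cells, 37.3 and 39.5 in LM cells and 41.4 and 50.5 in eG1-1 cells. The median other intergenic peak lay between percentiles 50.2 and 52.8 in all 6 lists. Many of these peaks lie near genes: 12423 of the 27699 other intergenic regions were within 10 kb of one. Scores of the farther ones alone were not compared. The probability that a desert peak outscored another intergenic peak was 0.439 and 0.427 in mito cells, 0.392 and 0.417 in LM cells and 0.433 and 0.478 in eG1-1 cells, all below 0.5. LM thus had both of its values below those of the other groups, and eG1-1 replicate 2 came closest to parity. Neither measure had a trend over the stages. The percentile slope of 2.39 had an exact permutation p of 0.422 (adjusted p 0.483), and it was −0.303 without eG1-1 replicate 2. The probability's slope of 0.0112 had an exact permutation p of 0.533 (adjusted p 0.533), and it was −0.00409 without that list. The median width of desert peaks was 421 and 468 bp in mito cells, 382 and 330 bp in LM cells and 343 and 420 bp in eG1-1 cells, and its slope of −31.5 bp had an exact permutation p of 0.311 (adjusted p 0.415).

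Desert regions were more often called in a single list. Of the 1693, 866 (51.2%) had a peak in 1 list alone, against 42.4% of all regions and 40.8% of other intergenic regions. At 200 to 300 kb from a gene the share was 50.5%, near that of the deserts, and within 10 kb it was 33.9%. Of the desert regions in 1 list alone, the eG1-1 lists held 24.6% and 41.6%. Of all regions in 1 list alone they held 18.7% and 51.5%, so their large part was not particular to deserts. For the desert regions the single list was mito in 44 and 104 cases, LM in 79 and 66 and eG1-1 in 213 and 360. A further 268 regions (15.8%) had a peak in 2 lists, against 16.1% of all regions, and those in 3, 4 and 5 lists numbered 147, 115 and 109, or 8.68%, 6.79% and 6.44%, against 9.93%, 8.01% and 8.05% of all regions. In all 6 lists, 188 (11.1%) had a peak, against 15.5% of all regions and 16.2% of other intergenic regions. Regions in a single list were narrow, with a median of 279 bp in deserts and 281 bp in other intergenic regions, while those in all 6 lists had a median of 1028 bp in deserts and 952 bp elsewhere between genes.

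The share of regions called throughout was lower in deserts than within genes, where it was 15.2%, and lower still than beside genes. Regions within 10 kb of a gene had a peak in all 6 lists in 23.0% of cases. The share was 11.1% at 10 to 50 kb, 10.1% at 50 to 100 kb, 10.7% at 100 to 200 kb and 10.2% at 200 to 300 kb. In the deserts it was 11.7% at 300 to 500 kb, 9.30% at 500 kb to 1 Mb and 12.8% over 1 Mb. The desert values lay near those of the classes from 10 kb outwards. By list the shape differed. The share held within 10 kb of a gene was 48.4% and 56.2% in mito cells, 45.3% and 37.9% in LM cells and 52.8% and 74.5% in eG1-1 cells. Over 1 Mb from a gene it was 27.2% and 37.8% in mito cells, 30% and 28.7% in LM cells and 51.9% and 61.3% in eG1-1 cells. The share in eG1-1 replicate 1 was thus nearly as high far from genes as beside them, while the other 5 lists held fewer of the far regions.

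**Figure D2:**
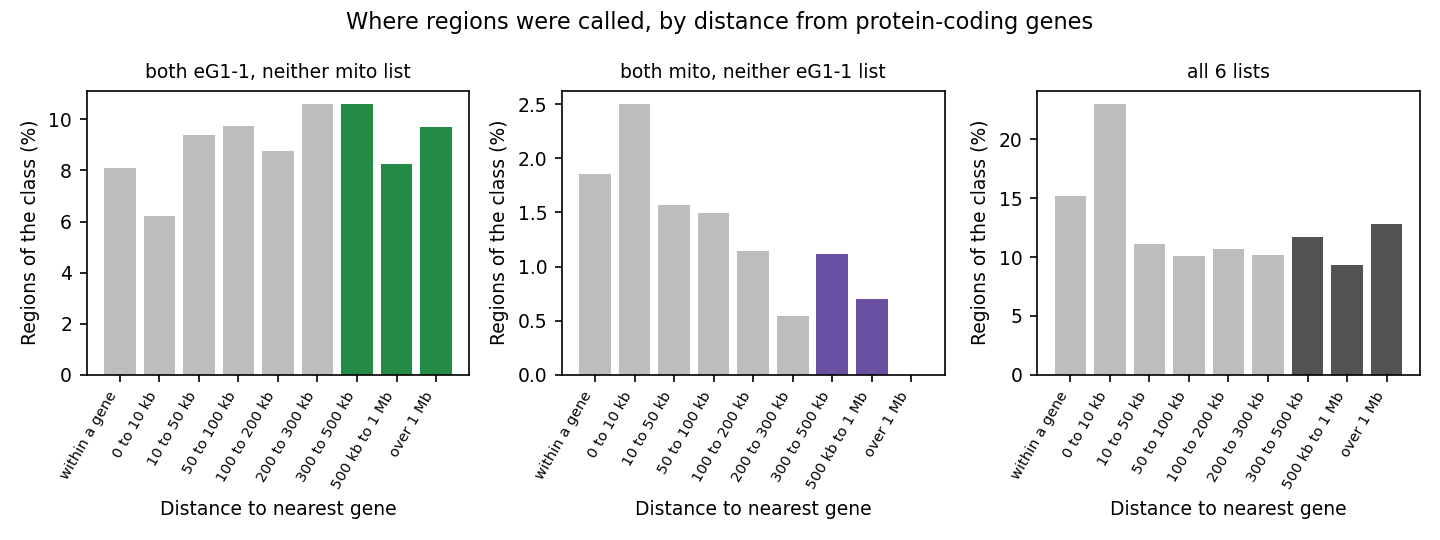
Percentage of regions of each distance class that were called in both eG1-1 lists and neither mito list (left), in both mito lists and neither eG1-1 list (middle) and in all 6 lists (right), by distance from the nearest protein-coding gene; coloured or dark bars are desert classes. Calls in all 6 lists drop from 23.0% within 10 kb to 11.1% at 10 to 50 kb and stay near that level in the deserts, and calls in mito alone of the pair fall to 0 over 1 Mb.

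Between eG1-1 and mito, desert regions were called far more often in early G1, as were other intergenic regions and regions within genes. Of them, 163 (9.63%) were called in both eG1-1 lists and not in mito, against 8.10% of all regions and 8.0% of other intergenic regions. In the opposite direction, 13 (0.768%) were called in both mito lists and not in eG1-1, against 1.85% of all regions and 1.91% of other intergenic regions. No group comparison of 2 lists with 2 can give an exact p below 0.333, so these counts carry no test. In both eG1-1 lists and no other list lay 115 desert regions (6.79%, against 5.57% of all), in both mito lists and no other 8 (0.473%, against 0.856%), and in both LM lists and no other 1 (0.0591%, against 0.119%). List length moves such counts: at equal length the numbers were 59 for eG1-1 without mito and 23 for mito without eG1-1. The shares over all regions at equal length were not computed, so these numbers have no background beside them.

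The 6 desert regions with the highest lower eG1-1 score and no mito peak were spread over 5 chromosomes. The first, chr13:87007629-87008162 between Cox7c and Edil3, scored 107 and 92 in eG1-1, with a peak of 40 in LM replicate 2. The second, chr4:28299857-28300619 between Manea and Epha7 (an ephrin receptor), scored 92 and 119 in eG1-1 and had no peak in the other lists. The third, chr12:50999436-51000114 between Prkd1 and G2e3, scored 96 and 90 in eG1-1 and had a peak of 48 in LM replicate 2. Their eG1-1 peaks lay at percentiles 71.4 to 85.3 of their lists, high by the choice of regions. The region chr10:54509623-54510204 between Man1a and Tbc1d32 scored 88 and 92 in eG1-1 and already had peaks of 28 and 40 in LM. The region chr12:27974396-27974981 between Sox11, a neural SOX-family factor, and Dcdc2c scored 86 and 195 in eG1-1, with a peak of 18 in LM replicate 2. The region chr18:16091142-16091480 between Chst9 and Cdh2, which encodes N-cadherin, scored 86 and 92 in eG1-1 and had no peak in the other lists. A weaker LM peak thus preceded the early G1 call in 4 of the 6, in both LM lists in 1 of them.

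Of the 13 regions called in mito and not in eG1-1, 5 of the 6 with the highest lower mito score are described. They include chr4:10399605-10400553 between Gdf6 and 2610301B20Rik, with no peak in eG1-1, 56 and 67 in mito and 64 in LM replicate 2. The region chr2:179096703-179097448 between Cdh26 and 4930591A17Rik had no peak in eG1-1 or LM and 51 and 37 in mito. The mito peaks of both lay between percentiles 23.5 and 55.8 of the mito lists. The region chr3:18697022-18697360 between Cyp7b1 and Armc1 had no peak in eG1-1 and 32 and 44 in mito. Of the leading 6, another 2, chr12:115293814-115295171 and chr12:115557339-115557906, had no peak in eG1-1 and 32 and 61, and 32 and 36, in mito. The first of them also had a peak of 48 in LM replicate 2. These 2 and 3 more of the 13 lay in the immunoglobulin heavy chain locus described below, so 8 of the 13 remained when antigen receptor clusters were left out.

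Few desert regions were called in LM without a call in the stages on either side. In both eG1-1 lists but not in LM, 192 desert regions were called (11.3%, against 9.37% of all regions), and in both LM lists but not in eG1-1, 3 were called (0.177%, against 0.458%). The leading examples of the first kind were chr18:17418560-17419481 between Cdh2 and Dsc3, with 129 and 110 in eG1-1 and no peak in LM, and chr18:19452737-19453432 in the same stretch, with 108 and 96 in eG1-1 and no peak in LM. The third by score was the chromosome 4 region beside Epha7. The first of the 3 of the second kind, chr12:115216110-115217092, had no peak in eG1-1, 43 and 33 in LM and 46 in mito replicate 1. The next, chr18:85697994-85698278 between Fbxo15 and Neto1, had no peak in eG1-1, 86 and 26 in LM and 72 in mito replicate 1. The last, chr4:31553258-31553917 between Epha7 and Map3k7, had 28 and 26 in LM and no peak in mito or eG1-1. All but one of these LM scores were under 50. In both LM lists but not in mito, 19 regions were called (1.12%, against 0.918% of all), and in both mito lists but not in LM, 49 were called (2.89%, against 3.55%).

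Of those 19, the leading 3 were chr2:47368229-47368896 between Zeb2 and Acvr2a, with 59 and 102 in LM and no peak in mito, chr8:17969922-17970329 between Csmd1 and Mcph1, with 59 and 56 in LM and no peak in mito, and chr12:115604940-115605395 in the heavy chain locus, with 129 and 50 in LM and no peak in mito. All 3 were also called in eG1-1, at 67 and 175, 50 and 111, and 49 and 167. Regions called in both LM and both eG1-1 lists but in neither mito list numbered 13 (0.768%, against 0.465% of all regions). Regions called in both mito and both eG1-1 lists but in neither LM list numbered 29 (1.71%, against 1.30%). The stretch between Cdh2 and Dsc3 held one of these 29, with no peak in LM against 83 and 67 in mito. Of the leading regions in mito without LM, 2 more recovered a call in eG1-1: chr12:113948231-113948643 in the heavy chain locus had no peak in LM and 73 and 67 in mito, and chr13:44209552-44210650 between Cd83 and Jarid2, a Polycomb cofactor, had no peak in LM and 72 and 66 in mito. Their eG1-1 scores were 13 and 111, and 19 and 53.

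The 188 desert regions called in all 6 lists allow scores to be read without the question of presence. Their median score was 76 and 96 in mito cells, 60 and 62.5 in LM cells and 80 and 132 in eG1-1 cells. The corresponding medians of the 4497 other intergenic regions called in all lists were 91 and 114 in mito cells, 87 and 72 in LM cells and 90 and 142 in eG1-1 cells, so desert regions scored lower in each of the 6 lists. The probability that a desert region outscored another intergenic region was 0.412 and 0.392 in mito cells, 0.334 and 0.427 in LM cells and 0.455 and 0.466 in eG1-1 cells. It was highest in both eG1-1 lists. Of the 4497 other intergenic regions, 2854 lay within 10 kb of a gene. Desert scores were not compared with those of the farther ones alone, so the lower scores are not shown to be particular to deserts.

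**Figure D3:**
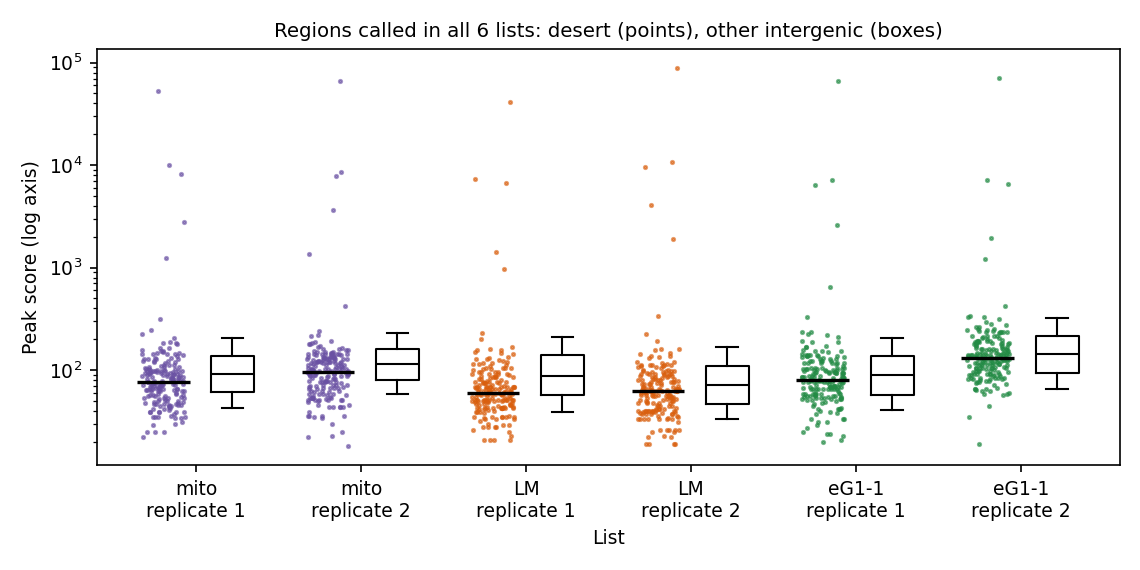
Peak scores (log axis) in each of the 6 lists for the 188 desert regions called in all of them (points, with the median as a thick line) and for 4497 other intergenic regions called in all of them (boxes from the lower to the upper quartile, whiskers from the 10th to the 90th percentile). The desert medians lie below the box medians in every list, and 5 desert regions stand far above the rest with scores over 500.

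The highest score of each list belonged to a desert region, and 1 or 2 of the 5 strongest peaks per list were in deserts. Of the 188 desert regions called in all lists, 5 scored over 500 in each list. Among the 4497 other intergenic regions called in all lists, 22 to 120 per list did, or 0.489% to 2.67%. The desert share was thus above theirs in every list but eG1-1 replicate 2, where the shares were level. The highest peak of each list lay at chr2:98666250-98667321, in the stretch between Lrrc4c and Iftap and 1035 kb from a gene. It scored 52601 and 66317 in mito cells, 40966 and 88339 in LM cells and 66224 and 71247 in eG1-1 cells. Its neighbour chr2:98662237-98663985 scored between 6585 and 10827. The region chr9:3000002-3038217, at the start of chromosome 9 in the assembly, merged 1 or 2 peaks per list over 38216 bp and scored 8283 and 7860 in mito cells, 7365 and 9517 in LM cells and 6349 and 7146 in eG1-1 cells. Satellite repeat is annotated at the start of chromosome 9, and the chromosome 2 stretch is known for reads piling up in many mouse assays. The part of repeats in these scores was not tested. Scores at chr8:15519805-15520098 between Myom2 and Csmd1 were 2788 and 3645 in mito cells, 1413 and 4089 in LM cells and 2602 and 1943 in eG1-1 cells. The region chr4:64497727-64498059 between Tnc and Pappa scored 1243 and 1348 in mito cells, 979 and 1915 in LM cells and 645 and 1216 in eG1-1 cells. At the chromosome 9 region both eG1-1 scores lay below those of the other lists, while at the other 4 of these 5 regions the eG1-1 and LM scores overlapped.

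The next regions of the same ranking looked like ordinary peaks. The region chr16:3115041-3115897, between the chromosome end and Olfr161, scored between 202 in LM replicate 1 and 421 in mito replicate 2. The region chr1:117457618-117459385, between Cntnap5a and B020011L13Rik, scored 183 and 162 in mito cells, 129 and 191 in LM cells and 223 and 261 in eG1-1 cells, where both early G1 values were the highest. As percentiles of the lists, LM replicate 2, at 96.9, lay above eG1-1 replicate 2, at 96.5. The region chr5:55791604-55792541, between Stim2 and the protocadherin gene Pcdh7 and 1671 kb from the nearer, scored between 110 and 192 over the lists. The region chr9:50123986-50125085, between Ncam1 and Plet1, scored 143 and 150 in mito cells, 119 and 121 in LM cells and 136 and 276 in eG1-1 cells, with LM lowest. The region chr1:114849106-114850276, between Dsel and Cntnap5a, scored between 101 and 232, both in LM. These 5 regions were 857 to 1768 bp wide.

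Desert regions were sparse and isolated. The parts of deserts more than 300 kb from both flanking genes spanned 358 Mb and held 4.71 regions per Mb, against 25.4 per Mb over 1088 Mb of other intergenic DNA and 35.2 per Mb over 984 Mb of genes. The median distance from a desert region to its nearest neighbouring region was 38.8 kb, against 6.69 kb for other intergenic regions. A neighbour lay within 10 kb for 28.5% of desert regions and for 64.4% of other intergenic regions. The density per list was 1.31 and 1.72 regions per Mb in mito cells, 1.27 and 1.33 in LM cells and 2.32 and 3.1 in eG1-1 cells. The genome had 503 stretches of over 600 kb between consecutive genes. Members lay in 353 stretches, counting those at chromosome ends, and 10 members lay before the first gene of a chromosome. The median member lay 522 kb from a gene, and 320 lay over 1 Mb away. Chromosome 8 had the most members, 181, and the highest density, 8.91 per Mb, while the other chromosomes ranged from 2.82 to 6.24.

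The members farthest from any gene lay between Olfm4 and Pcdh17 on chromosome 14. The farthest, chr14:82293924-82294194, was 2149.5 kb away and had a peak of 71 in eG1-1 replicate 1 alone. The next 3 in that stretch had a score of 26 in LM replicate 2, of 30 in mito replicate 2, and of 34 and 21 in eG1-1. The fifth, chr18:27728679-27729860 between Celf4 and Pik3c3, was 1975 kb from a gene and scored 30 and 32 in mito, had no peak in LM and scored 56 and 80 in eG1-1. At the other end, the 3 members just inside the 300 kb limit, between 300.2 and 301 kb from a gene, lay beside Ptprd, Gpc5 and G2e3. They had 1 peak of 34 in eG1-1 replicate 2, 1 peak of 35 in LM replicate 1, and peaks of 64 in mito replicate 1 and 150 in eG1-1 replicate 2. The 3 regions just outside the rule, beside Pcdh10, Anxa10 and Hace1, had 1 peak each, of 57 to 59, in an eG1-1 list.

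By stretch, the most members lay in the immunoglobulin heavy chain locus, whose variable segments are rearranged in B cells and are not counted as protein-coding genes in the annotation. The 2.5 Mb between Adam6a and Zfp386 on chromosome 12 held 72 members, or 37.9 per Mb of the part more than 300 kb from both genes. They had a peak in 21 and 30 cases in mito cells, 22 and 20 in LM cells and 11 and 15 in eG1-1 cells. Here the early G1 lists held fewer than each of the other 4 lists, the reverse of the remaining 1621 desert regions, of which 452 and 589 were held in mito cells, 436 and 459 in LM cells and 822 and 1099 in eG1-1 cells. At equal list length the heavy chain numbers were 14 and 10 in mito cells, 15 and 20 in LM cells and 5 and 7 in eG1-1 cells, still lowest in eG1-1. Those of the other deserts were then 376 and 381 in mito cells, 359 and 459 in LM cells and 471 and 478 in eG1-1 cells, so there the excess of eG1-1 over LM replicate 2 was small. With scores of at least 50 they were 3 and 10 in mito cells, 4 and 5 in LM cells and 3 and 8 in eG1-1 cells, where few regions were left and the groups overlapped. The stretch was singled out after its values were seen, and 49 of its 72 members were called in a single list. An annotated segment overlapped 12 of them. The light chain locus Igk held 18 members, called in 7 and 7 cases in mito cells, 5 and 7 in LM cells and 7 and 15 in eG1-1 cells. The T cell receptor alpha and delta locus held 10, called in 3 and 2 cases in mito cells, 2 and 3 in LM cells and 4 and 7 in eG1-1 cells, so neither showed fewer calls in early G1.

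**Figure D4:**
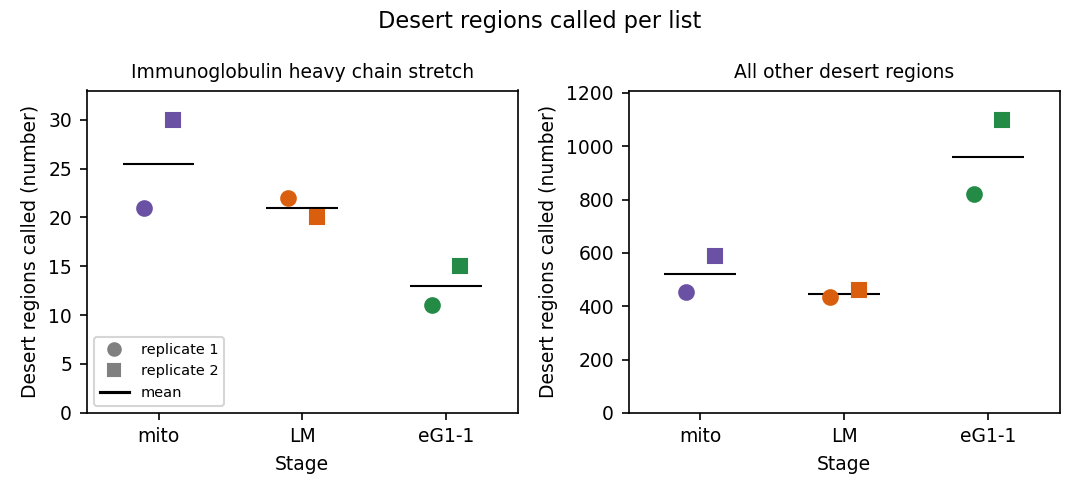
Number of desert regions called per list in the immunoglobulin heavy chain stretch (left, 72 members) and in all other deserts (right, 1621 members) at mito, LM and eG1-1; circles are replicate 1, squares replicate 2 and lines the mean of 2. In the heavy chain stretch the eG1-1 lists have 11 and 15 regions, the lowest values, while in all other deserts they have 822 and 1099, the highest.

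The other 4 stretches with the most members lay at cadherin, teneurin and contactin-associated genes, which encode neural adhesion proteins. Between Got2 and Cdh8, 36 members were held in 10 and 8 cases in mito cells, 12 and 8 in LM cells and 13 and 20 in eG1-1 cells. Between Tenm3 and Aga, 33 members were held in 9 and 9 cases in mito cells, 8 and 9 in LM cells and 15 and 19 in eG1-1 cells. Both stretches and the one between Cdh8 and Cdh11, with 25 members, are on chromosome 8, and in the first 2 both eG1-1 lists exceeded the rest. The stretch between Cntnap5b and Cdh20 held 22 members, 4 of them called in all 6 lists.

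Stretches beside pluripotency genes were comparatively rich in desert regions. Of a list of 35 such genes, 8 deserts had one at an edge, and 7 of these held 44 members (2.60% of all), at 10.3 per Mb against 4.71 over all deserts. They were held in 7 and 16 cases in mito cells, 10 and 11 in LM cells and 24 and 32 in eG1-1 cells, so both early G1 lists held more than the other 4. Of these, 3 (6.82%) were called in both eG1-1 lists and not in mito, none in the reverse, and 4 (9.09%) were called in all 6 lists. Those shares are below the 9.63% and 11.1% of all desert regions, and most of the regions with an eG1-1 peak had it in 1 of the 2 lists only. The density was uneven, from 4.31 per Mb between A1bg and Myc to 22.9 between Med13l and Tbx3. Stretches without a listed pluripotency gene could be denser, such as that between Mn1 and Cryba4, at 73.9. The higher density is thus not shown to be particular to pluripotency genes.

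**Figure D5:**
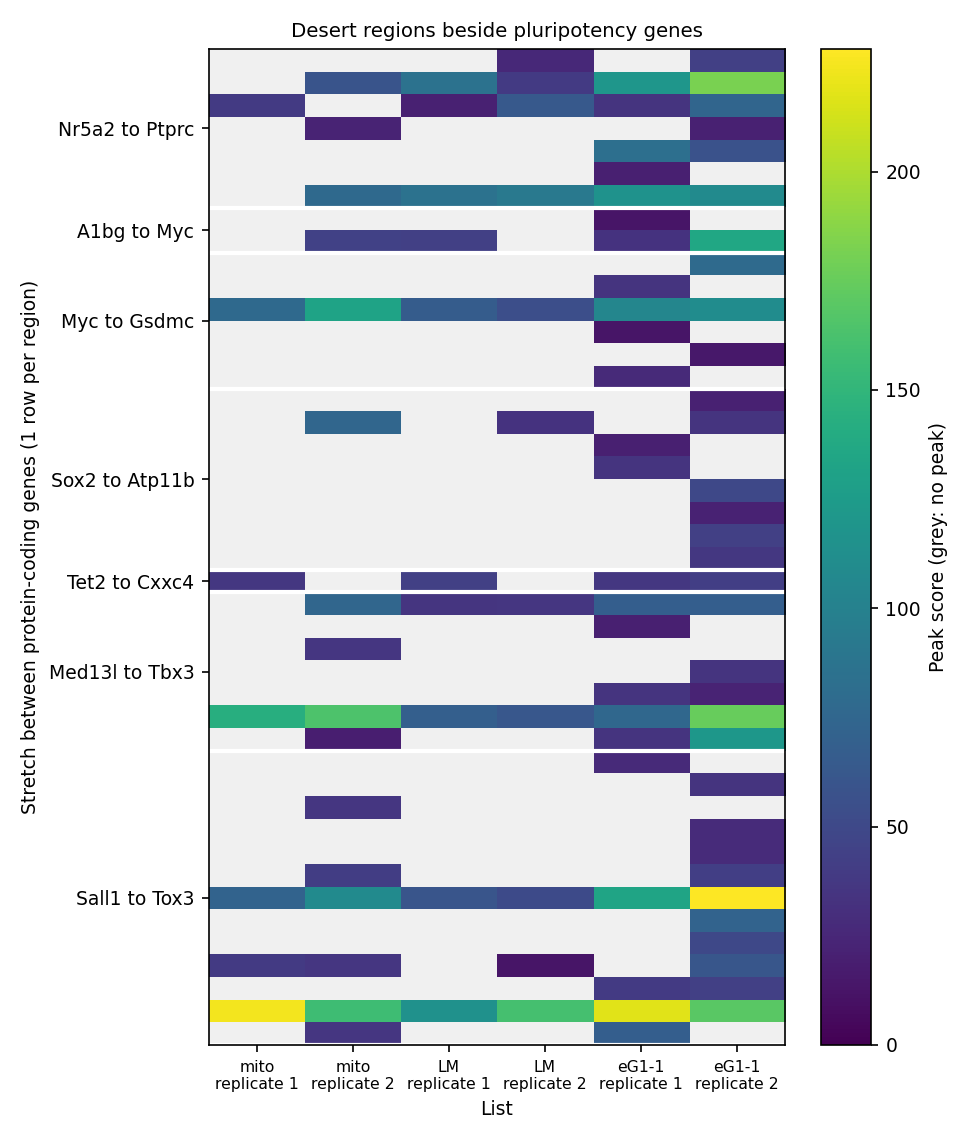
Peak score of each of the 44 desert regions beside pluripotency genes (rows, grouped by the genes that bound the stretch) in each list (columns); grey means no peak. Rows filled across all 6 lists are few, 4 in all, and many rows have a peak in 1 eG1-1 list only.

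The 4 called throughout were among the broadest of the set. One lay between Myc, the proto-oncogene that drives growth, and Gsdmc, at chr15:62958298-62959514 and nearer to Gsdmc. It scored 78 and 132 in mito cells, 66 and 55 in LM cells and 105 and 111 in eG1-1 cells. One lay between Med13l and Tbx3, a T-box factor of naive pluripotency, at chr5:119309733-119310845, and scored 143 and 164 in mito cells, 69 and 62 in LM cells and 76 and 175 in eG1-1 cells. In both, each LM score was below each score of the other groups. The remaining 2 lay between Sall1, a zinc finger partner of the pluripotency network, and Tox3. The first, chr8:89582448-89583467, scored 73 and 109 in mito cells, 60 and 51 in LM cells and 133 and 228 in eG1-1 cells, in groups that did not overlap, with LM lowest and eG1-1 highest. The second, chr8:89823421-89825270, scored 224 and 157 in mito cells, 115 and 161 in LM cells and 218 and 170 in eG1-1 cells.

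Between Nr5a2, a nuclear receptor that sustains naive cells, and Ptprc, 2 of 7 members were called in 5 lists with only mito replicate 1 missing. One scored 59 in mito replicate 2, 86 and 39 in LM and 120 and 182 in eG1-1. The other, nearer to Ptprc (324 kb), scored 78 in mito replicate 2, 86 and 92 in LM and 116 and 109 in eG1-1. In both, the eG1-1 scores were the highest. As percentiles of their lists, though, the peaks of the region nearer to Ptprc overlapped, at 74.3 and 82.0 in LM and 87.5 and 78.8 in eG1-1. Another member called in 5 lists, chr1:137378226-137378992, scored 39 in mito replicate 1, 21 and 64 in LM and 34 and 74 in eG1-1, where the groups overlapped. A further one, chr1:137587535-137587946, also nearer to Ptprc, had no peak in mito or LM and scored 83 and 57 in eG1-1. The 8 members between Sox2 and Atp11b were weak: 7 were called in just 1 eG1-1 list, with scores of 20 to 49, and 1 had peaks of 75 in mito replicate 2, 33 in LM replicate 2 and 34 in eG1-1 replicate 2. The 1 member beside Tet2, a DNA demethylation enzyme, scored 37 in mito replicate 1, 43 in LM replicate 1 and 37 and 42 in eG1-1.

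Deserts at 110 developmental regulator genes held 131 members (7.74%), at 5.20 per Mb. Of these, 16 (12.2%) were called in both eG1-1 lists and not in mito, 1 in the reverse, and 11 were called in all 6 lists (8.40%). Over all desert regions these shares were 9.63% for eG1-1 without mito and 11.1% for all 6 lists. The examples with the highest lowest score were chr13:71507467-71508592 beside Irx1, with 111 and 158 in mito cells, 132 and 105 in LM cells and 86 and 92 in eG1-1 cells, and chr18:81865297-81866470 between Sall3 and Galr1, with 108 and 217 in mito cells, 70 and 112 in LM cells and 187 and 340 in eG1-1 cells. Early G1 had the lowest scores at the first, while at the second its lowest score lay above both LM scores. Next came chr13:79867388-79869252 between Nr2f1 and Arrdc3, with 56 and 82 in mito cells, 74 and 69 in LM cells and 142 and 204 in eG1-1 cells, and chr2:116399563-116400889 beside Meis2, with 70 and 76 in mito cells, 55 and 54 in LM cells and 93 and 105 in eG1-1 cells. Both had their highest scores in early G1 without overlap. Nr2f1 is a nuclear receptor of neural development and Meis2 a homeobox factor.

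Deserts at 83 neural adhesion genes held 488 members (28.8%), at 4.39 per Mb. They were called in all 6 lists in 65 cases (13.3%), in both eG1-1 lists and neither mito list in 42 (8.61%) and in the reverse in 1, near the 11.1% and 9.63% of all desert regions. Of their 4 examples with the highest lowest score, 3 were the chromosome 2 pair beside Lrrc4c and the region beside Csmd1 given above. The fourth was the chromosome 1 region between Cntnap5a and B020011L13Rik.

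Other annotated genes covered a minority of the desert regions. Of the 1693, 325 (19.2%) overlapped some annotated gene that is not protein-coding, against 21.7% of other intergenic regions. Long noncoding RNA genes overlapped 203 (12%, against 18.9%) and pseudogenes 21 (1.24%, against 1.94%). No desert region overlapped a tRNA gene, while 150 other intergenic regions did. Of 1136 microRNA genes on chromosomes 1 to 19, 42 lay in deserts and 8 had a desert region within 2 kb. Among those 8, Mir125b-1 and Mir125b-2 give rise to the same mature microRNA, miR-125b-5p, known for a role in neural and blood cell differentiation, and its sequence is shown with the seed (bases 2 to 8) in capitals, from RefSeq on GRCm38.p6.
miR-125b-5p: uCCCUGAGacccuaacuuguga

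The region that overlaps Mir125b-1, chr9:41581718-41582211, scored 23 in mito replicate 2 and 32 in eG1-1 replicate 2 and had no peak in the other lists. The region near Mir125b-2, at a distance of 1611 bp, had a single peak of 28 in eG1-1 replicate 2. At the start of Mir100hg, the host gene of Mir125b-1, the region scored 32 in mito replicate 1 and 35 in LM replicate 1 and had no peak in eG1-1. None of these calls was made in both lists of a group. In the stretch between Gm51483 and the imprinted gene Ndn, regions at Mir344d-2, Mir344b and Mir344-2 had 1 peak each, of 25 in eG1-1 replicate 1 and of 42 and 92 in eG1-1 replicate 2. In the imprinted stretch between Rtl1 and Dio3, the region at the start of Gm34554 scored 50 in mito replicate 2, 32 in LM replicate 1 and 13 and 43 in eG1-1.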

How the data were processed

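Accessible DNA was measured by ATAC-seq in 6 samples, each with 1 deposited peak list of chromosome, start, end, name and score. The score column of the deposited lists is the authors' own whole-number value, and its scale is not given in the sources used here. Each sample has its own peak calls from paired-end fragments, per the peak names in the deposited files, so replicates were not pooled. Tools named in the submitters' processing notes, without their roles, are MACS2 2.2.4, STAR 2.7.0e, bedtools, SAMtools 1.10, Picard and deepTools 3.5.1, with the builds mm10 and GRCm38. Neither the caller's threshold nor a shift for the Tn5 offset is given in these sources.

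Peaks on 19 autosomes that overlapped by at least 1 bp were merged into regions, a region taking the highest score of each list. Distances ran from the region's centre to the ends of 20665 protein-coding genes of the RefSeq table (GRCm38.p6, the assembly of mm10). No genome sequence was used, so region sequences were not read. Each of 8 measures per list was tested for a least-squares slope, by exact two-sided permutation, over mito, LM and eG1-1 (90 assignments), with Benjamini-Hochberg adjustment, and again within sequencing runs (36 assignments, smallest p 0.0556). The method was tested on simulated lists. Regions were held by a group when both lists had a peak and absent when neither did, and such counts carry no test. Whether same-numbered lists deviate together was checked over the 1693 regions; the correlations of 0.0489 for LM and mito, 0.0115 for eG1-1 and LM and 0.0345 for eG1-1 and mito were all under 0.1, and the pairing rests on the shared run named in the peak names.

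Named regions were the 10 called in all lists with the highest lowest percentile, the 6 per direction between eG1-1 and mito and 3 for other pairs by the higher of the lower scores, those at the 300 kb limit, the 5 farthest, the 5 fullest stretches, those beside listed genes and those at noncoding starts. One region that this rule names is not reported here. The members, gene lists and tests were chosen with earlier results of these data known. The alternatives were limits of 200 and 500 kb, all annotated genes as bounds, equal list length, scores of at least 50, a 50 bp overlap, chromosome X, the run as a block and leaving out each list. Those without antigen receptor clusters or the 5 highest regions, and those of the heavy chain stretch, were chosen after seeing the data. Computations used Python 3.11.15, NumPy 2.4.6, pandas 2.3.3 and SciPy 1.17.1.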

Additional observations from a re-analysis of the deposited data

Results flagged for a closer look

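Chromosome X was outside the autosomal comparisons and held desert regions too: 36 of its 1271 regions (2.83%) lay more than 300 kb from a protein-coding gene. They had a peak in 10 and 17 cases in mito cells, 9 and 9 in LM cells and 19 and 25 in eG1-1 cells, with both eG1-1 lists highest, as on the autosomes. Of the 36, 2 were called in all 6 lists, 2 in both eG1-1 lists and neither mito list, and 1 in the reverse. The shares of these patterns over all chromosome X regions were not computed, so these counts have no background beside them.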

How the results depend on the processing

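Of the 73 recomputed trends that kept all 6 lists, 72 kept their direction and no trend passed the threshold after adjustment; the smallest adjusted p over all settings was 0.133. The exception was the score percentile, whose slope was −0.137 with all annotated genes as bounds. The cause was not tested. Some of the kept directions were fixed in advance. With the run as a block the slope itself is the same. No trend could pass the threshold there, because the smallest possible exact permutation p is 0.0556. The share of the strongest 1000 peaks could not move at equal list length, and its slope stayed 0.150 with scores of at least 50. Of 72 recomputed counts, 35 moved by over 1.5 times. They are given in the order eG1-1 without mito, mito without eG1-1, eG1-1 without LM, LM without eG1-1, LM without mito, mito without LM, all 6 lists and all desert regions, leaving out those that moved less. A 200 kb limit gave 261, 299, 10, 31, 75 and 2619, without the second and the seventh. A 500 kb limit gave 78, 4, 106, 6, 24, 94 and 890, without the fourth. All annotated genes as bounds gave 15, 0, 13, 0, 0, 1, 7 and 83. Equal list length gave 59, 23, 53, 14, 27 and 970, without the fifth and the seventh. Scores of at least 50 gave 82, 5, 120, 1, 6, 78 and 776, without the sixth. Without antigen receptor clusters the second was 8.

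Leaving out 1 list at a time gave slopes of 0.163 to 0.296 for the share of peaks, 114 to 289 for the number, 0.370 to 0.556 for the share of intergenic peaks, −0.303 to 3.61 for the percentile, −0.00409 to 0.0193 for the probability of outscoring, −56.1 to −13.3 for width, 2.98 to 6.36 for presence and 0.129 to 0.171 for the strongest 1000. The percentile and the probability turned negative without eG1-1 replicate 2. The counts, in the order above, ranged over 163 to 570, 14 to 123, 192 to 627, 3 to 91, 19 to 142, 49 to 236, 187 to 231 and 1347 to 1655; the high ends come from a group reduced to 1 list. With the sequencing run as a replicate block the slopes stayed as they were (0.482 for the share of intergenic peaks), with an exact permutation p of 0.0556 for that share and an adjusted p of 0.356. Unknown depth limits every count of missing peaks.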
